A study of Caenorhabditis briggsae with 12 samples.

Results

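Later adulthood (days 6 and 9) was compared with earlier adulthood (days 1 and 3) in whole hermaphrodites of the nematode Caenorhabditis briggsae. The 6 later libraries, 3 of day 6 and 3 of day 9, were taken from the 12 libraries of the series by the day in their labels, and the 6 libraries of days 1 and 3 served as the baseline. All animals were of AF16, the wild-type laboratory strain of the species, were untreated, and were kept at 20 °C on E. coli OP50. Each library holds RNA of whole animals, so that tissues, germ cells and any embryos inside the mother were measured together. Gene expression was measured by RNA-seq, and each later and each earlier day had the same weight in the comparison. The series title speaks of a shift after reproduction, and this comparison asks which genes differ between the later and the earlier pair of days.

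Hermaphrodites of this species are self-fertile. They make a limited store of sperm before adulthood and then switch to oocytes, so that self-fertile egg laying is limited to the first part of adult life. The somatic cells of an adult nematode no longer divide, while the germ line goes on dividing in young adults. In the related species C. elegans, ageing adults are known for a shrinking germ line, continued production of yolk and declining muscle and gut.

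The 23169 genes of the count table carry WormBase identifiers without names, and none of them could be matched to a gene symbol. Genes are therefore given by identifier, groups by their behaviour, and no tissue marker could be checked. In RNA of whole animals, fewer cells of a type and less RNA per cell cannot be told apart. Totals ranged from 14276540 to 33079955 counts in the later libraries and from 26471202 to 33732477 in the earlier ones. The shallowest was replicate 1 of day 9, and the day 9 libraries were not alike. Replicate 1 correlated with replicates 2 and 3 of day 9 at r = 0.834 and 0.812 across 15788 genes, with the day 6 libraries at 0.958 to 0.969 and with the day 1 libraries at 0.798 to 0.807. Replicates 2 and 3 of day 9 correlated with each other at 0.994, with the day 1 libraries at 0.936 to 0.939 and with the day 6 libraries at 0.842 to 0.893. By this measure 2 of the 3 day 9 libraries, which count as later, were closer to day 1 than to day 6, and they also bear on the contrast that sets days 1 and 9 against days 3 and 6. The labels give no reason for the split. The median standard deviation per gene between libraries of a day was 0.10 at day 1, 0.15 at day 3, 0.18 at day 6 and 0.53 at day 9, on the log2 scale of CPM (counts scaled to a common library size).

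Later adults had 878 genes called higher and 652 called lower than earlier adults, out of 15788 tested. These are 5.56% and 4.13% of the genes, and 9.69% for both directions together, by edgeR's quasi-likelihood test with a Benjamini-Hochberg adjusted p under 0.05. The genes called higher had a median log2 fold change of 1.02, with quartiles of 0.65 and 1.54, and the genes called lower had a median of -0.93, with quartiles of -1.71 and -0.44. The median over all tested genes was 0.00. A change of at least 2-fold was found in 446 of the higher genes (50.8%) and 298 of the lower genes (45.7%), against 13.1% of all tested genes. At least 4-fold changes were found in 144 of the higher genes (16.4%) and 127 of the lower genes (19.5%), against 4.25% of all tested genes. The 144 genes had a median of 0.17 CPM at day 1, and the 127 genes 0.15 CPM at day 6. The size of many of these changes thus rests on few counts. The median level of the higher genes was 11.04 CPM in later adults and 5.16 CPM in earlier adults. For the lower genes it was 5.78 CPM in later adults and 13.7 CPM in earlier adults.

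The number of genes past the threshold depended on single libraries. Without day 9 replicate 1, 2360 genes were called higher and 3543 lower, and all 878 and 652 of the original calls were among them. Without replicate 1, 2 or 3 of day 1 the higher genes numbered 530, 571 and 558 and the lower genes 357, 365 and 346. The lower genes numbered 416, 414 and 379 without replicate 1, 2 or 3 of day 3, and 372 and 355 without replicate 1 or 2 of day 6. Of the original calls, 484 higher and 294 lower genes were called in each of the 12 fits that left out a single library. DESeq2 called 1180 higher and 1744 lower genes, 863 and 650 of them among the original calls. A fit with 1 mean for each pair of days, in which the difference between days of a pair counts as noise, called 155 higher and 58 lower genes.

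**Figure D1:**
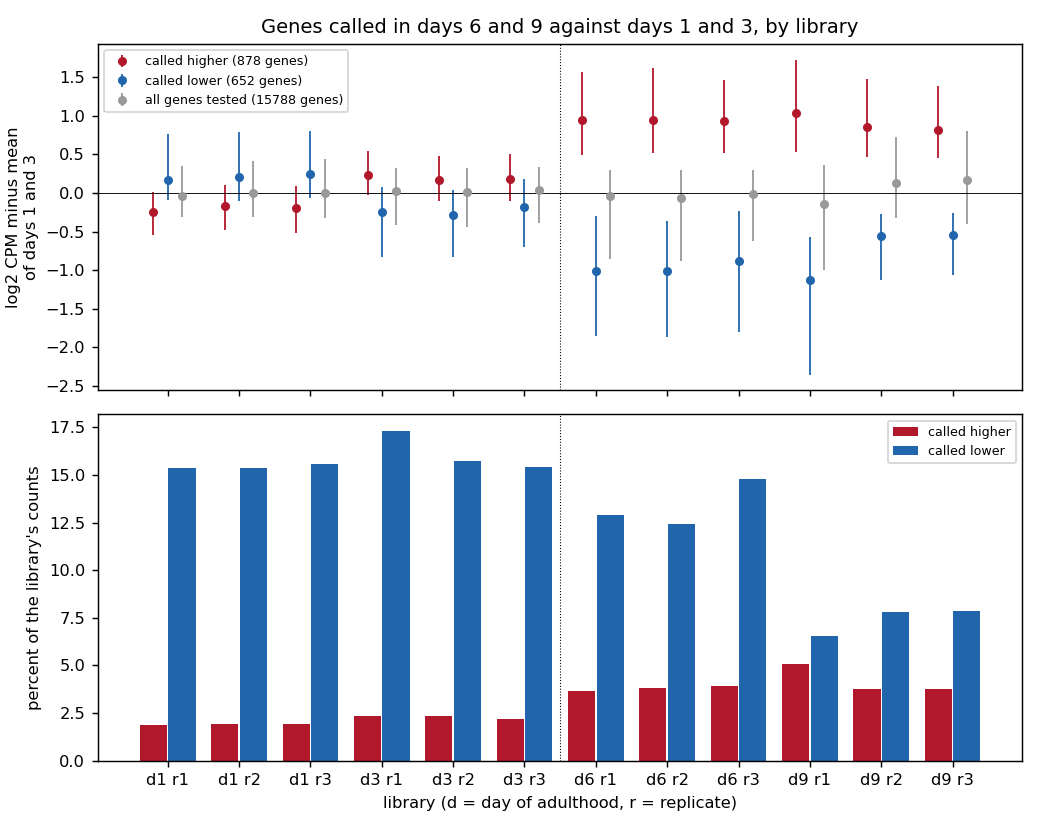
Upper panel: log2 CPM minus the mean of days 1 and 3 in each of the 12 libraries, with the median (point) and quartiles (line) over the 878 genes called higher, the 652 called lower and all 15788 tested. Lower panel: percent of each library's counts held by both groups of called genes; the higher genes hold 3.68% to 5.07% in the later libraries and 1.89% to 2.37% in the earlier ones.

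The median called gene lay on its called side in each of the 6 later libraries, which follows in part from their selection on these libraries. The median difference of the higher genes from the earlier mean ranged between 0.93 and 0.95 on the log2 scale in the day 6 libraries, and the day 9 replicates 1, 2 and 3 had 1.03, 0.85 and 0.81. For the lower genes it was -1.01, -1.01 and -0.88 at day 6 and -1.12, -0.56 and -0.54 at day 9. The plot by library thus shows the median of the higher genes at a similar level in both later days. The median of the lower genes lay closer to the earlier level in replicates 2 and 3 of day 9. Single higher genes were not level between the later days. Their log2 step from day 6 to day 9 had quartiles of -0.57 and 0.53, and 50.9% of them rose. Over all tested genes the same medians were -0.07 to -0.02 at day 6 and -0.15, 0.13 and 0.16 at day 9.

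Each library was also set against genes called without it. Of the genes called higher without day 6 replicate 1, 2 or 3, that left-out library lay above the earlier mean for 95.7%, 95.2% and 94.3%, where 46.4% to 49.02% of all tested genes did. For day 9 replicates 2 and 3 the shares were 93.6% and 86.9%, against 55.4% and 56.1% of all genes. Day 9 replicate 1 lay above the earlier mean for 64.5% of 2311 such genes and below it for 76.2% of 3528 genes called lower, against 43.0% and 57.0% of all genes. Among genes called lower without them, the other left-out later libraries lay below the earlier mean for 77.8% to 95.4%, where 43.9% to 53.6% of all tested genes did. Left-out earlier libraries lay below the later mean for 90.9% to 99.5% of the genes called higher, against 37.5% to 51.6% of all genes. They lay above it for 80.8% to 97.2% of those called lower, against 48.4% to 62.5% of all genes. The lowest of these shares, 80.8% for day 3 replicate 2, stood against 55.3% of all genes. These shares are descriptions: a left-out library has same-day libraries in the fit, and genes are not independent replicates. The mean that each left-out library was set against also comes from libraries that chose the genes. That can raise the shares, so the shares of all tested genes do not give the value without a difference.

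In 311 of the 878 higher genes (35.4%), all 6 later libraries lay above all 6 earlier libraries, and in 143 of the 652 lower genes (21.9%) all later libraries lay below. These genes make up 1.97% and 0.906% of the genes tested. Over all tested genes, called or not, such a gap was found upward for 330 genes (2.09%) and downward for 173 (1.1%), or 3.19% in all. The genes with a gap had median log2 fold changes of 1.22 upward and -1.13 downward, against 0.91 and -0.88 for called genes whose libraries overlapped. Between day 3 and day 6, the genes with a gap upward had a median step of 0.91 on the log2 scale, and steps of 0.18 from day 1 to day 3 and 0.10 from day 6 to day 9. The genes with a gap downward had steps of -0.07, -0.78 and -0.26 over the same 3 intervals. A gap between all later and all earlier libraries sets the direction of the step from day 3 to day 6, so these steps describe the genes chosen and nothing is read from them.

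The higher genes, with and without a gap, had a median level of 4.38 CPM at day 1, 5.53 at day 3, 10.04 at day 6 and 10.6 at day 9. The lower genes had medians of 18.04, 6.82, 4.16 and 6.74 CPM at the same days. Both later days lay beyond both earlier days in 663 of the higher genes (75.5%) and 387 of the lower genes (59.4%), where day means lay so upward in 9.21% and downward in 8.29% of all tested genes. The selection of the called genes on this contrast raises their shares. A steady order through days 1, 3, 6 and 9 was seen in 254 of the higher genes (28.9%) and 128 of the lower genes (19.6%). The selection also bears on this order and on the steps and days that follow. No share over all genes stands beside them, so they are descriptions only. The largest step in the called direction fell between days 3 and 6 in 413 of the higher genes, between days 1 and 3 in 292 and between days 6 and 9 in 173. Among the lower genes it fell between days 1 and 3 in 278, between days 3 and 6 in 209 and between days 6 and 9 in 165. The lowest day of the higher genes was day 1 in 626 and day 3 in 245, and their highest day was day 9 in 444 and day 6 in 425. For the lower genes the highest day was day 1 in 430 and day 3 in 215, and the lowest day was day 9 in 333 and day 6 in 307.

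Over all 12 libraries, the difference between later and earlier days held less of the variation between days than that of days 1 and 9 from days 3 and 6. The part held by the later-earlier difference depended on the day 9 libraries. The means of 4 days can differ in 3 independent ways, of which later against earlier is the first, days 1 and 9 (the edges) against days 3 and 6 (the middle) the second, and days 3 and 9 against days 1 and 6 the third. In the same edgeR fit, 5495 genes (34.8%) were called higher and 5042 (31.9%) lower at the edge days than at the middle days, 66.7% in all. Leaving out single libraries gave 4633 to 6995 higher genes and 3311 to 6112 lower genes. The lower count moved by over 1.5 times without day 3 replicate 2 (3347), day 6 replicate 1 (3311) and day 6 replicate 2 (3320). Upper-quartile scaling changed these counts to 6947 and 3321 and shifted the median of all genes to 0.33 on the log2 scale, against 0.10 under TMM scaling. The third contrast called 220 genes higher (1.39%) and 146 lower (0.925%), or 2.32%. Its balance turned with scaling: 154 were higher and 261 lower with median-of-ratios factors, and 163 and 180 with upper-quartile scaling. Its counts also ranged from 26 to 3559 higher and from 47 to 1320 lower genes when single libraries were left out, the highest of both without day 9 replicate 1.

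Per gene, the later-earlier contrast held a median of 12.3% of the variation between the 4 day means, and the edge-middle contrast 70.9%. This median for the later-earlier contrast was 6.60% without day 9 replicate 1, 21.4% without replicate 3 of day 9, and between them without each other library. With each replicate number taken alone, the medians had an SD of 17.4 percentage points, which is more than the 12.3% itself. Summed over all genes the later-earlier contrast, the edge-middle contrast and the third held 22.6%, 66.8% and 10.5%. Among the genes called higher the later-earlier contrast held a median of 65.5%, and among those called lower 52.5%, values that the selection of these genes raises.

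**Figure D2:**
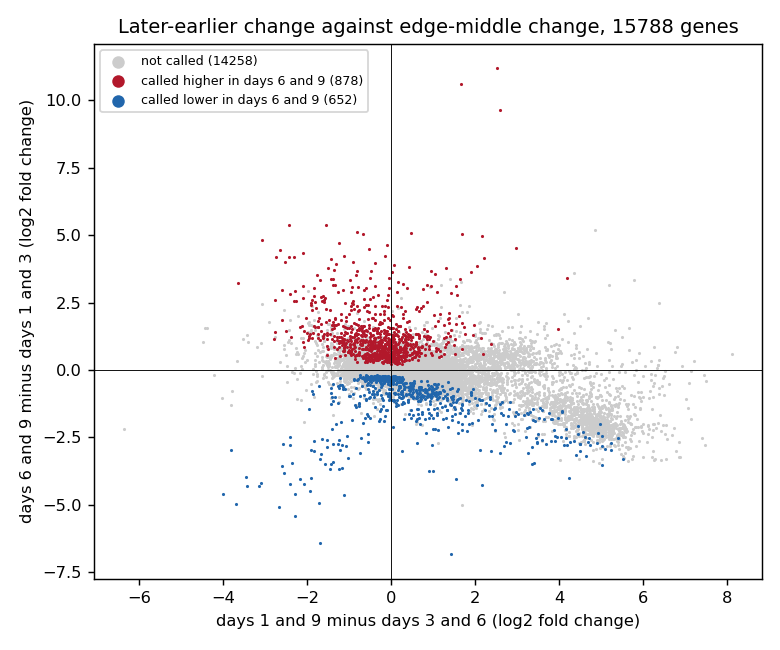
Each point is 1 of 15788 genes, with the log2 fold change of days 1 and 9 against days 3 and 6 on the horizontal axis and that of days 6 and 9 against days 1 and 3 on the vertical axis. Red points are the 878 genes called higher and blue points the 652 called lower in later adults. The grey points include 374 genes that were at least 4-fold lower without being called. Of these, 367 were called higher at the edge days, against 34.8% of all tested genes.

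The called genes were divided by their call in the edge-middle contrast, and this division sets much of the course of each group, so that the levels by day are descriptions. Of the 878 higher genes, 419 (47.7%) were not called in it, 325 (37.02%) were lower at the edge days and 134 (15.3%) were higher there, against 31.9% lower and 34.8% higher over all tested genes. The share lower at the edge days was thus near that of all genes. The 325 genes had medians of 5.06 CPM at day 1, 8.92 at day 3, 20.6 at day 6 and 11.4 at day 9. The 134 genes had medians of 5.64, 3.73, 6.69 and 13.8 CPM. The 419 genes had a higher median at each sampled day, of 3.48, 4.19, 7.98 and 9.06 CPM.

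Of the 652 lower genes, 290 (44.5%) were higher at the edge days, 181 (27.8%) were lower there and 181 were not called, against 34.8% higher and 31.9% lower over all tested genes. The 290 genes had medians of 12.6 CPM at day 1, 2.88 at day 3, 1.52 at day 6 and 3.70 at day 9. The 181 genes lower at the edge days had medians of 53.0, 65.3, 58.8 and 38.8 CPM. The 181 genes not called in the edge-middle contrast had medians of 17.02, 11.3, 8.44 and 6.77 CPM, a level that went down at each sampled day.

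A call in the later-earlier contrast and none in the other two was found for 362 of the higher genes (41.2%) and 165 of the lower genes (25.3%). Of the genes not called in the later-earlier contrast, 32.6% had no edge-middle call and 98.8% had none in the third contrast. The 41.2% and 25.3% are thus not read as a trait of the called genes. A missing call does not show that the other differences are absent, and the counts of 362 and 165 depended on the libraries. Without day 9 replicate 1, which raised the calls of all 3 contrasts, 409 of 2360 higher genes (17.3%) and 251 of 3543 lower genes (7.08%) were of this kind, 186 of the 362 and 88 of the 165 among them. The 362 higher genes had median levels of 8.56 CPM in later adults and 3.85 CPM in earlier adults. For the 165 lower genes they were 5.39 CPM in later adults and 11.5 CPM in earlier adults. The median steps of these higher genes were 0.22, 0.69 and 0.14 on the log2 scale from day to day, and those of the lower genes -0.16, -0.55 and -0.16.

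Many genes with a large difference were not called. At least 4-fold lower in later adults, but not called, were 374 genes, and 26 genes were at least 4-fold higher without a call. Of the 374 genes, 367 (98.1%) were called higher at the edge days, against 34.8% of all tested genes. Their median levels were 13.4 CPM at day 1, 0.44 at day 3 and 0.08 at day 6. In replicates 1, 2 and 3 of day 9 the medians were 0, 4.02 and 4.58 CPM. Their median standard deviation between libraries was 3.00 at day 9 on the log2 scale, and 0.08 at day 1. For the 127 genes that were called lower with a 4-fold change the corresponding values were 0.94 and 0.19, and their medians in the 3 day 9 libraries were 0, 0.33 and 0.24 CPM. Of these 127 genes, 65 (51.2%) were called higher at the edge days.

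The called genes were spread over the whole range of CPM, which is not corrected for transcript length. The tested genes were divided into 5 classes of equal size by their mean over all libraries. In the middle class, with means of 4.92 to 19.4 CPM, 8.61% were called higher and 3.61% lower. In the most abundant class, with means above 71.8 CPM, 2.82% were called higher and 5.45% lower. The median log2 fold change in the 5 classes lay between -0.06 and 0.04. Of the 10 genes with the highest mean, 6 passed the test as lower in later adults and none as higher, and their log2 fold changes ranged between -1.24 and 0.21. Of the 100 most abundant, 14 (14%) were lower and 2 (2%) higher. Of the 500 most abundant, 50 (10%) were lower and 16 (3.2%) higher. Over all tested genes, 4.13% were lower and 5.56% higher. The part of abundance in the power to call a gene was not tested.

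**Figure D3:**
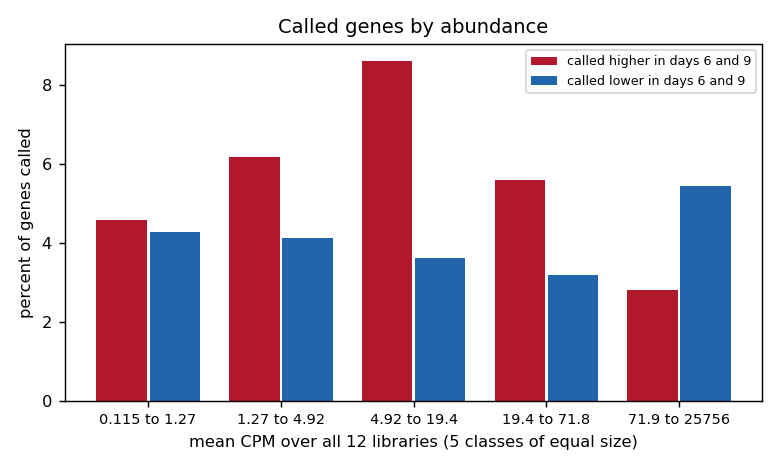
Percent of tested genes called higher (red) and lower (blue) in days 6 and 9 against days 1 and 3, by 5 classes of mean CPM over all 12 libraries, each with the same share of the genes. Calls in the higher direction are most frequent in the middle class (8.61%), and calls in the lower direction outnumber them in the most abundant class (5.45% against 2.82%).

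The lower genes held more of the counts than the higher genes. They took 10.4% ± 3.39 of the counts in the later libraries and 15.8% ± 0.76 in the earlier ones (SD, n = 6 each), and 10 of the 652 genes took 62.0% of the group's counts. By day, their share was 15.4% ± 0.12 at day 1, 16.1% ± 1.02 at day 3, 13.4% ± 1.27 at day 6, then 7.41% ± 0.74 on day 9 (SD over 3 libraries). The higher genes took 4.001% ± 0.53 in the later libraries and 2.11% ± 0.22 in the earlier ones. By day, they took 1.92% ± 0.033, 2.30% ± 0.092, 3.80% ± 0.11 and 4.21% ± 0.75. Between successive sampled days, the mean share of the lower genes differed most between days 6 and 9, and that of the higher genes between days 3 and 6. No test is given, as these genes were chosen from the same libraries.

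Summary values of whole libraries did not pass the test between the pairs of days. The 100 most abundant genes of a library held 23.1% ± 2.43 of its counts in later adults and 26.5% ± 1.11 in earlier adults (SD, n = 6 each; exact permutation test, two-sided, p = 0.0173, or 0.0693 adjusted over 4 measures). Lower shares were not seen in each later library, since day 6 replicate 3 held 26.7%. Without that library the adjusted p of the exact permutation test was 0.00866. Without each other library in turn, it lay between 0.0693 and 0.139 and did not pass. The top 10 genes held 8.001% ± 2.88 in later adults and 10.5% ± 2.68 in earlier adults, with an adjusted p of 0.188 in the exact permutation test. The effective number of genes, the exponential of the Shannon entropy of the counts, was 3156 ± 487 in later adults and 2719 ± 351 in earlier adults (exact permutation test, adjusted p = 0.188). Genes at 1 CPM or more numbered 12168 ± 1152 in later adults and 12548 ± 895 in earlier adults (exact permutation test, adjusted p = 0.483). By day this number was 13357 at day 1, 11739 at day 3, 11448 at day 6, while the day 9 replicates 1, 2 and 3 had 11362, 13620 and 13681 such genes. The test treats the libraries of both days of a pair as exchangeable, and the smallest p it allows is 0.00216.

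A mean of 10 CPM or more in the higher pair of days was reached by 162 of the called genes with an upward gap and 67 of those with a downward gap, with median log2 fold changes of 1.02 and -0.45. Of them, 83 of the 162 and 13 of the 67 differed at least 2-fold. The 2 genes with the largest fold change in each direction are described here, and what their products do is not annotated in the sources used.

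WBGene00024459 had no count in the 6 earlier libraries. The day 6 replicates 1, 2 and 3 had 2.83, 2.56 and 0.195 CPM, and the day 9 replicates had 161, 9.34 and 11.4 CPM. Every later library was above every earlier one, and day 9 replicate 1 was far above the rest. The later mean of 31.2 ± 63.8 CPM (SD, n = 6) was at least 1804-fold higher than a limit of 3 counts over the earlier libraries, with an edgeR adjusted p of 0.0181. Without day 9 replicate 1 the later mean was at least 304-fold higher than this limit, and the day 6 mean alone at least 107-fold. The call was lost without day 6 replicate 2, at an edgeR adjusted p of 0.0513, and without all day 1 libraries, at 0.0938. It was also lost in limma-voom, at an adjusted p of 0.0812, and in the edgeR fit with 1 mean for each pair of days, at 0.0876.

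WBGene00024462 followed the same course, at 3.36, 3.12 and 0.163 CPM in the day 6 libraries and 237, 17.04 and 16.2 CPM in those of day 9. Earlier adults held a single count, in day 3 replicate 1. Summed over libraries, 4813 later counts against 1 earlier count gave a ratio of 5270, with an exact Poisson interval at 95% of 945 to 208211 that covers counting error only. Day 9 replicate 1 held 3572 of the later counts, and without it the remaining 1241 gave a ratio of 1502, with an interval of 269 to 59384. The edgeR adjusted p was 0.00543. The call was lost in limma-voom, at an adjusted p of 0.0964, and in edgeR without all day 1 libraries, at 0.0529. Its later mean was 46.1 CPM, and 7.98 CPM without day 9 replicate 1. For both genes the level in day 9 replicate 1 was more than that of all other later libraries together.

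**Figure D4:**
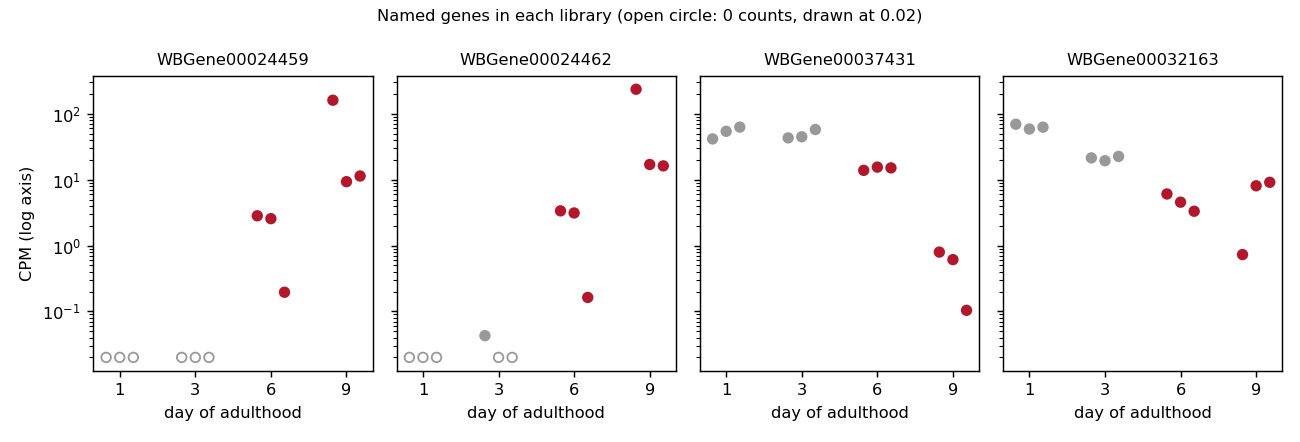
CPM of the 4 named genes in each of the 12 libraries on a log axis, by day of adulthood, with red points for days 6 and 9 and grey points for days 1 and 3; open circles are libraries with 0 counts, drawn at 0.02. WBGene00024459 and WBGene00024462 reach 161 and 237 CPM in day 9 replicate 1 and have 0 counts in the earlier libraries, except 1 count of WBGene00024462 in day 3 replicate 1, while WBGene00037431 and WBGene00032163 lie below their earlier levels in each later library.

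WBGene00037431 was at 13.9, 15.5 and 15.1 CPM in the day 6 libraries and 0.795, 0.611 and 0.104 CPM in the day 9 libraries. At days 1 and 3 it was at 41.7 to 63.0 CPM in all 6 libraries. The later libraries all lay below the earlier ones, and the day 9 libraries below those of day 6. The later mean was 7.67 ± 7.88 CPM and the earlier mean 50.8 ± 8.80 CPM (SD, n = 6 each). The log2 fold change was -4.25 ± 0.32 (SE, edgeR adjusted p = 8.39e-05). The fit averages the days on the log scale. The day 9 libraries, with 12, 22 and 3 counts, thus weigh more in it than in the means of CPM. The gene was also called in the edge-middle contrast (edgeR adjusted p = 0.000286) and in the third contrast (edgeR adjusted p = 0.00381). The fold change lay between -4.41 and -3.96 when single libraries were left out, and with all of day 9 left out it was -1.80, with an edgeR adjusted p of 1.77e-05. The fit with 1 mean for each pair of days did not call it (edgeR adjusted p of 0.219).

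WBGene00032163 measured 6.07, 4.56 and 3.32 CPM in the day 6 libraries, and the day 9 replicates 1, 2 and 3 had 0.729, 8.09 and 9.13 CPM. Earlier libraries had 69.6, 58.8 and 62.8 CPM on day 1, then 21.5, 19.4 and 22.6 CPM on day 3. Its level had therefore already gone down between days 1 and 3, and the day 9 libraries were not alike. The later mean was 5.32 ± 3.11 CPM and the earlier mean 42.5 ± 23.6 CPM (SD, n = 6 each). The log2 fold change was -2.79 ± 0.45 (SE; edgeR adjusted p = 0.0036). With all day 1 libraries left out, the later days against day 3 gave -1.85 with an edgeR adjusted p of 0.135, while leaving out single libraries kept the value between -2.98 and -2.55.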

How the data were processed

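Per the labels' protocols, Trizol was used for RNA extraction and the TruSeq RNA Sample Preparation Kit v2 for the libraries. The authors deposited raw counts per gene, 1 column per library. STAR, featureCounts and MultiQC are named in the submitters' processing notes; the versions, genome build, gene models and strandedness were not given in the sources used here, so single genes of overlapping or near-identical families are uncertain. A reference table of 22727 genes (assembly CB4) matched 0 of the identifiers. For this reason the gene lists and tissue markers that had been drawn up were not used, and no position or sequence is given.

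The analysis used edgeR 4.0.16 (R 4.3.3). The filterByExpr function, grouped by day, kept 15788 of 23169 genes; 2202 had 0 counts throughout. After TMM scaling, the 12 libraries were fitted with a mean for each day and robust quasi-likelihood dispersion (8 residual degrees of freedom, common biological coefficient of variation 0.341). The tested contrast was the mean of days 6 and 9 minus the mean of days 1 and 3; the other two contrasts came from the same fit. The spread is shared between days, although day 9 varied most. P-values were adjusted over all genes tested, and the SE is the log2 fold change over the root of F. CPM is scaled with the TMM factors, and log2 CPM has a prior count of 2. The limit for 0 counts is 3 counts, 0.0817 to 0.199 CPM per library. Such limits cover counting error only.

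The labels do not say that replicates came from separate cultures, so p-values measure only how these samples vary, which may be technical variation. The labels name no batch. Libraries of a day differed beyond sampling noise (chi-square of 4.23 to 288 per degree of freedom, over genes with at least 10 counts), and none was counted as a repeat. On simulated counts (15493 genes fitted, 100 changed 2-fold and 100 changed 4-fold) the contrast recovered 36% and 79% of them. Of its calls there, 6.50% were false. Whether these rates hold for the measured libraries, whose spread differed between days, was not tested.

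Named genes were called, without overlap between the libraries and at 10 CPM or more in the higher pair of days; the 2 largest changes per direction are given. The comparison, its gene lists and its rules were chosen with earlier results of these data known. Alternatives were median-of-ratios and upper-quartile scaling, other low-count filters, DESeq2 1.42.0, limma-voom (limma 3.58.1) with and without sample weights, 1 mean per pair of days, the replicate number as a block, stricter thresholds, and leaving out libraries or days.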

Additional observations from a re-analysis of the deposited data

Results flagged for a closer look

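Sets of 6 libraries with counts in 2 or more of them numbered 18. In 4 of these sets a single library lay farther from its nearest neighbour than Dixon's limit allows. The limit is passed in about 1 in 20 sets of independent draws from a single group. These sets join libraries of different days and include genes chosen from the same libraries, so that rate does not apply. In 3 of the 4 sets the library was day 9 replicate 1. WBGene00024459 was at 161 CPM there, and the next highest later library was at 11.4 CPM. WBGene00024462 was at 237 CPM there, against 17.04 CPM in the next. The genes called higher held 5.07% of the counts there and at most 3.90% in the other later libraries. The other case was day 3 replicate 1, where the genes called lower held 17.3% of the counts, against 15.7% in the next earlier library. WBGene00024462 had its single earlier count, or 0.0428 CPM, in day 3 replicate 1 too; a lone count passes the limit by construction and is not among the 4. Day 9 replicate 1 also had the lowest total, at 14276540 counts; the part of depth in these values was not tested.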

How the results depend on the processing

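No setting in which a named gene was tested turned its direction, and the counts with median-of-ratios factors (826 higher, 800 lower), upper-quartile scaling, other filters and limma-voom stayed within 1.5 times of 878 and 652. DESeq2 called 1744 lower genes. Higher and lower calls numbered 2899 and 4271 in limma-voom with sample weights, 155 and 58 with 1 mean per pair of days, 408 and 233 at an adjusted p under 0.01, and 446 and 298 with a 2-fold change required. They were 4802 and 5355 without replicates 2 and 3 of day 9, where the lone day 9 library is assumed to vary like the others, and 298 and 128 without day 1. Without day 1, 248 and 89 of the original calls were kept and 1 was called the other way. Of the 1473 original calls with a value in that fit, 1341 had the same sign. Without day 3 the lower genes numbered 2552. Without day 9 the calls were 4469 and 5247, with 724 and 542 of the original calls among them and 9 called the other way. Single libraries left out gave 530 to 2360 higher and 346 to 3543 lower genes. In each of 26 alternative fits, all read at an adjusted p under 0.05 and without the 2 stricter thresholds, 91 of the higher and 12 of the lower genes were called.

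The edge-middle contrast had 3321 lower genes with upper-quartile scaling and 3311 to 6112 with single libraries left out. The third contrast gave 102 higher and 241 lower genes with no filter, 128 and 290 with a stricter filter, 509 and 680 with DESeq2, 261 lower with median-of-ratios factors, and 26 to 3559 higher and 47 to 1320 lower with single libraries left out. Genes without overlap downward numbered 108 with the stricter filter and 166 to 260 with single libraries left out. The difference in the share of the top 100 genes lay between -4.07 and -2.80 percentage points with single libraries left out. The causes were not tested. DESeq2 gave no adjusted p for WBGene00024459 and WBGene00024462. Both genes were also not among the tested genes with the stricter filter, nor without all day 9 libraries.

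With the replicate number as a block, 698 higher and 528 lower genes were called, 681 and 498 of them shared; the third contrast then had 98 higher and 99 lower genes, and the edge-middle contrast 5161 and 4992. Deviations from the day means of same-numbered libraries correlated at -0.35 to 0.48, over 0.1 in 9 of 18 pairs; as this limit was not passed in each pair, the numbers were not taken as a pairing. A library deviated most like its own number in 23 of 36 comparisons with another day, where 12 would be the value if numbers carried nothing. The comparisons are not independent, and whether the numbers carry a relation that the labels do not state was not tested. In the simulation most 2-fold changes were missed, so genes not called may differ by 2-fold.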
